A study of Homo sapiens with 3 samples.

Results

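The chromatin marks at 10 genes that encode enzymes of glycolysis (HK1, HK2, GPI, PFKL, PFKP, ALDOA, GAPDH, ENO1, PKM and LDHA) were examined in H2087 cells, an established line from a human lung adenocarcinoma. The genes were chosen by name, as 10 of the 20163 protein-coding genes of GENCODE release 44 on the hg19 build. No rule on their values was used, but earlier results of these data were known when they were chosen. For each gene, the peak intervals of 2 histone marks that lay over the gene body or within 20 kb of it were taken. Chromatin immunoprecipitation followed by sequencing (ChIP-seq) had been done on untreated H2087 cells with an antibody against histone H3 trimethylated at lysine 4 (H3K4me3) or acetylated at lysine 27 (H3K27ac). Each mark was 1 library (n = 1), and the input library of the same cells was not analysed here. No value therefore has a replicate, no test was made, and all values describe these libraries.

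Glycolysis splits glucose into pyruvate in the cytosol and yields ATP without oxygen. Hexokinase traps glucose as a phosphate, phosphofructokinase commits it to the pathway, and pyruvate kinase makes the last ATP of the path. Lactate dehydrogenase then regenerates NAD+ by turning pyruvate into lactate, which many tumours do even where oxygen is present. Of the marks, H3K4me3 lies mainly around the starts of active genes, while H3K27ac marks active enhancers as well. Most steps can be carried out by several isozymes, which are separate genes used by different tissues.

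The H3K4me3 list held 18585 distinct intervals with a median width of 305 bp, and the H3K27ac list 24096 with a median of 284 bp. Each interval carries the −log10 q given by the peak caller, where a larger value means a stronger call against the background. It ranks intervals within a list and also rises with the number of reads and of gene copies. How deeply the libraries were sequenced is unknown from the lists, so a gene without an interval cannot be told from one with too few reads. Of 13 markers of lung adenocarcinoma and lung epithelium, 8 had H3K4me3 and 7 had H3K27ac within 1 kb of the gene start. Over all protein-coding gene starts the shares were 38.2% and 23.6%. NKX2-1, KRT7, KRT8, KRT18, KRT19 and CDH1 had both marks, the surfactant gene SFTPD and EPCAM H3K4me3 alone, and MUC1 H3K27ac alone. The start of NAPSA and those of the surfactant genes SFTPA1, SFTPB and SFTPC had neither. No start among 4 squamous, 4 neuroendocrine and 4 fibroblast or endothelial markers had either mark, and of 3 blood markers CD68 alone had one, an H3K27ac interval.

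In all, 31 H3K4me3 and 54 H3K27ac intervals lay over or within 20 kb of the 10 glycolytic genes. All 10 genes had at least 1 interval of each mark there, against 61.6% of all protein-coding genes for H3K4me3 and 54.2% for H3K27ac. The median gene of the 10 had 3 H3K4me3 and 4.5 H3K27ac intervals, and the median of all protein-coding genes was 1 for either mark. Gene length was alike, with a median of 30.1 kb for the 10 genes and 27.2 kb for all. HK2 had the most H3K27ac intervals with 14, followed by ALDOA with 9, HK1 with 8, PKM with 6, ENO1 with 5, LDHA with 4 and GAPDH with 3. GPI and PFKL had 2 each and PFKP had 1. For H3K4me3, the counts were 6 for HK2, 5 for HK1, 4 each for ALDOA and PKM, 3 each for PFKL, GAPDH and ENO1, and 1 each for GPI, PFKP and LDHA. The genes of the first enzyme thus stood at or near the top for both marks: HK1 and HK2 together held 11 of the 31 H3K4me3 intervals (35.5%) and 22 of the 54 H3K27ac intervals (40.7%). Both genes are longer than the median of the 10, at 132 and 59.2 kb, and the counts were not scaled by length. PFKP, at 71.4 kb, had 1 interval of each mark. The spread of such counts between libraries is unknown, so neighbours in this order cannot be said to differ.

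**Figure D1:**
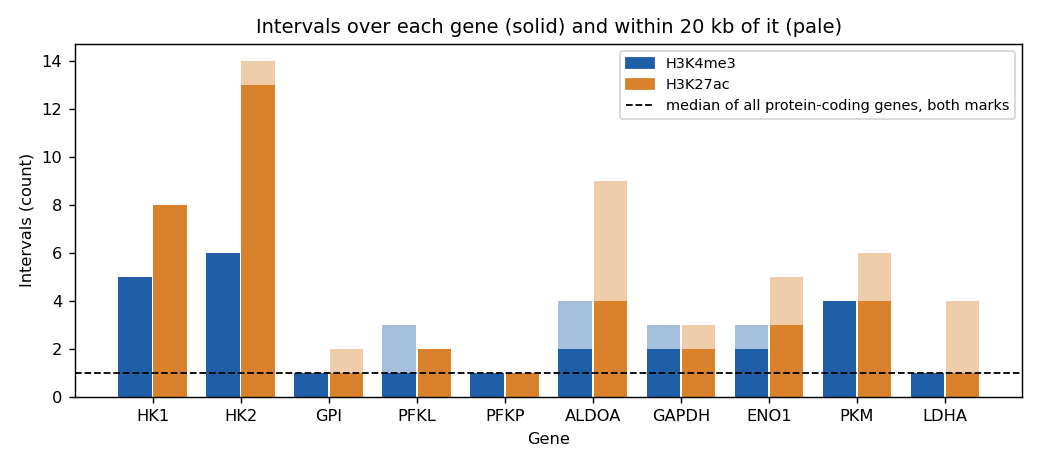
Number of H3K4me3 (blue) and H3K27ac (orange) intervals at each of the 10 genes, in the order of the pathway. The solid part of a bar counts intervals over the gene body, the whole bar those over or within 20 kb of it, and the dashed line is the median of all protein-coding genes for either mark, 1 interval. HK2 stands highest with 14 H3K27ac and 6 H3K4me3 intervals, and PFKP lowest with 1 of each.

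The start of a gene was first taken as the outer 5′ end of its annotation. Within 1 kb of it, H3K4me3 was found at 7 of the 10 genes, where 38.2% of all protein-coding gene starts had it. H3K27ac was likewise found at 7 of 10, against 23.6% of all. Overlapping intervals of both marks lay at 5 of 10, namely HK2, PFKL, ALDOA, PKM and LDHA, against 15.5% of all. The starts of GAPDH and ENO1 had both marks in intervals that did not overlap, and the starts of HK1, GPI and PFKP had neither. These counts moved with the settings. With intervals at or above their list's median −log10 q alone, 2 genes had H3K4me3 and 2 had overlapping marks. A distance of 500 bp left 3 genes with H3K27ac and 1 with overlapping marks, and an overlap of 50% of each interval left 3. The start of any transcript of the gene gave 10 genes with H3K4me3, 9 with H3K27ac and 8 with overlapping marks. The shares of all genes were not computed under these settings, so these counts cannot be set against the shares above. For several genes the outer end lies away from the start of the canonical transcript, so the start of the canonical transcript was used as well, a choice made after the values had been seen. On that definition 9 of 10 genes had H3K4me3 (41.8% of all), 8 of 10 had H3K27ac (25.5%) and 6 of 10 had overlapping intervals of both (17.2%). HK1 and PFKP gained a mark by this change, and GPI remained the 1 gene with neither.

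**Figure D2:**
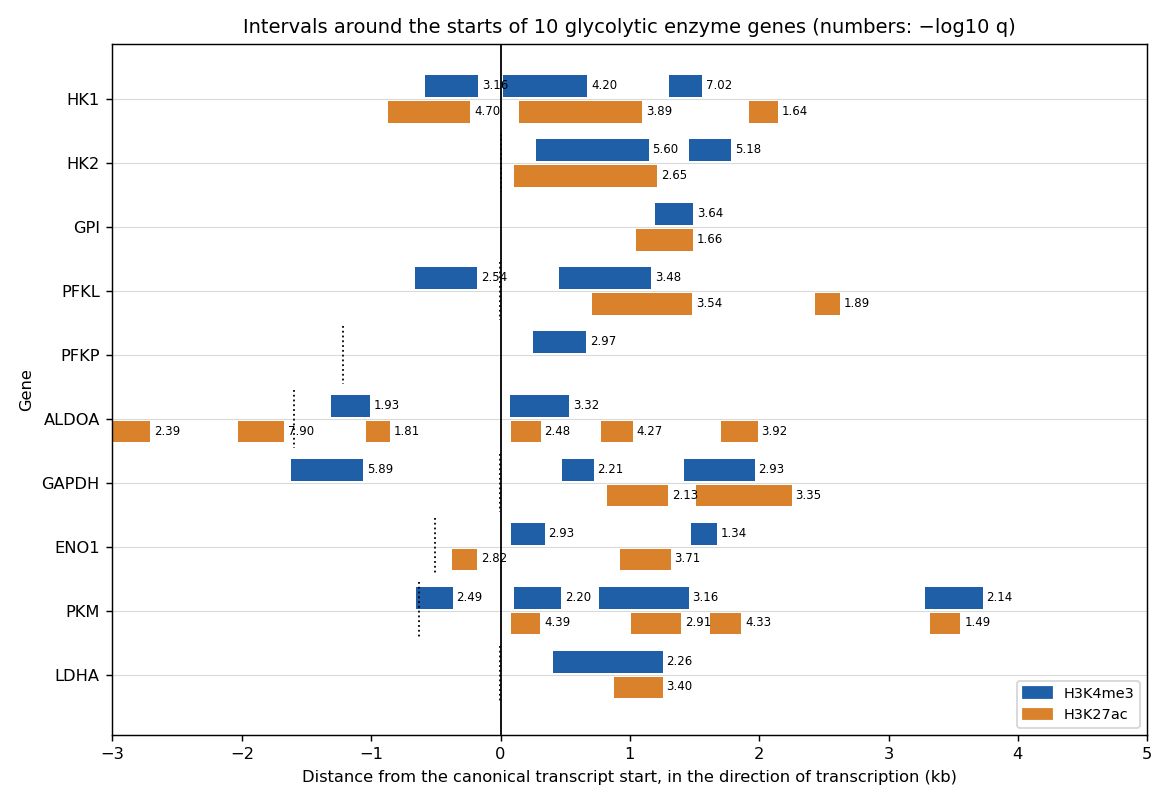
Intervals of H3K4me3 (blue, upper) and H3K27ac (orange, lower) from 3 kb before to 5 kb after the canonical transcript start of each gene (solid line at 0), in the direction of transcription, with the −log10 q printed beside each interval. The dotted lines mark the outer gene start where it lies in view. Most intervals in view begin after the solid line, and the H3K4me3 interval of PKM alone covers an outer gene start.

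Both among the 10 genes and in the lists as a whole, the marks lay beside the starts more often than on them. Of the 9 H3K4me3 intervals within 1 kb of a gene start, 8 had their centre downstream of it, as had 7 of the 8 H3K27ac intervals. Over all pairs of a protein-coding gene start and an interval within 1 kb of it, the centre was downstream in 70.3% for H3K4me3 and 65.8% for H3K27ac. The start base itself was covered by H3K4me3 in 1 of 10 genes, PKM, against 3.30% of all gene starts, and 0 of 10 were covered by H3K27ac, against 1.47%. Bare start bases were thus the usual state and no trait of these genes. Bodies of the genes held 25 of the 31 H3K4me3 intervals (80.6%) and 39 of the 54 H3K27ac intervals (72.2%). Over all pairs of a protein-coding gene and an interval within 20 kb of it, 47.1% of the H3K4me3 and 47.0% of the H3K27ac intervals lay over the body. One interval can enter several such pairs.

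The 300 bases before the start were read from the GRCh37 assembly, the same build as hg19, and searched on both strands for 3 sets of letters. ACGTG is the core of the element bound by the hypoxia factor HIF, CACGTG is the E-box read by MYC and related factors, and GGGCGG is the GC box. Each CACGTG holds ACGTG on both strands and so counts as 2 of its matches. ACGTG was present before 7 of the 10 gene starts, against 22.7% of all protein-coding gene starts, and CACGTG before 3, those of GPI, ENO1 and LDHA, against 8.06%. GGGCGG was present before 3, against 50.4% of all. The median GC content of the windows was 66.2% for the 10 genes and 58.3% for all, and its relation to these counts was not tested. Before the canonical starts the counts were 6 for ACGTG (23.6% of all), 1 for CACGTG (8.89%) and 8 for GGGCGG (60.9%), so the counts move with the choice of start. A match of letters is a description of the window and not a site.

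The windows of 4 genes are shown because, among windows without exon bases, they hold the most matches of a kind or lie beside a marked start. They are those of LDHA (chr11:18415807-18416106, plus strand), ENO1 (chr1:8939250-8939549, minus strand) and PFKL (chr21:45719634-45719933, plus strand) before the gene start, and that of ALDOA (chr16:30076781-30077080, plus strand) before the canonical start. Each is written 5′ to 3′ on the strand of the gene, and capitals mark the 3 sets of letters on either strand. LDHA holds 5 matches of ACGTG, ENO1 4, and the others 1 each, and PFKL holds 7 of GGGCGG and ALDOA 4. The window before the GPI gene start also holds 5 of ACGTG, and that before the PFKP canonical start 7 of GGGCGG. These 2 windows include 88 and 46 exon bases and are not shown.
LDHA: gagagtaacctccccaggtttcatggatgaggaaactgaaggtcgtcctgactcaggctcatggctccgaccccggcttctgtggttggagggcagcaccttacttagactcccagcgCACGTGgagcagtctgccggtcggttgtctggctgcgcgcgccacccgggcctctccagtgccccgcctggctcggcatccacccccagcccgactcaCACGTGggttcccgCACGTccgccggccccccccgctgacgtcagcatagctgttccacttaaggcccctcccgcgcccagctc
ENO1: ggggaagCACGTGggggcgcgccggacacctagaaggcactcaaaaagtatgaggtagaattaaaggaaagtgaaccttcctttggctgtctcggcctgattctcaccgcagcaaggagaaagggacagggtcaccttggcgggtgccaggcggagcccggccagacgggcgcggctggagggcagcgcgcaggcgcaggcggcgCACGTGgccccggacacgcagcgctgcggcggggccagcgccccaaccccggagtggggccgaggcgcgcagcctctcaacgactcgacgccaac
PFKL: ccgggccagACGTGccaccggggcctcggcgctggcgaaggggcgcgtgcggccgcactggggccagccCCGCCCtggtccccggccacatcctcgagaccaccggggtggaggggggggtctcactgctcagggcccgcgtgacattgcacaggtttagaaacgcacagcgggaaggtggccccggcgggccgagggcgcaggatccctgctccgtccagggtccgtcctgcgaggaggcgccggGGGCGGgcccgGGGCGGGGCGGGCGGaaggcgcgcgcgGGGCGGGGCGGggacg
ALDOA: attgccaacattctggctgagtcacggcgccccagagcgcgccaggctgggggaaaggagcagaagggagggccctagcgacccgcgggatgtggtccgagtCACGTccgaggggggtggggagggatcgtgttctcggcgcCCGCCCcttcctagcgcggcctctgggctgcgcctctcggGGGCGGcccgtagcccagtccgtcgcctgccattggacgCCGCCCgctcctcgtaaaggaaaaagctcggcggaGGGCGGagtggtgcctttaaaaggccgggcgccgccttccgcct

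HK1 encodes the hexokinase that most tissues share. Its annotation runs over 132 kb of chromosome 10 (chr10:71029740-71161640, plus strand), and the canonical transcript starts 48863 bp after the outer start. No interval of either mark lay within 1 kb of the outer start. At the canonical start, an H3K4me3 interval of 656 bp (−log10 q 4.20) covered part of exon 1, and another of 407 bp (3.16) lay before it. H3K27ac intervals of 636 bp (4.70) and 955 bp (3.89) overlapped these 2. The strongest H3K4me3 interval of the gene was neither, but a 255-bp interval with a −log10 q of 7.02, 1302 to 1556 bp past the canonical start in an intron. It exceeded 94.2% of its list and overlapped no H3K27ac. Further inside the gene, 1 H3K27ac interval of 347 bp reached a −log10 q of 4.25 at 64412 bp from the outer start, with no H3K4me3 over it, while the other 5 intronic H3K27ac intervals lay between 1.64 and 2.45.

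The 2 intronic intervals are shown because they hold the strongest call of one mark without the other. The first is the whole H3K4me3 interval (chr10:71079905-71080159, plus strand), in which none of the 3 sets of letters occurs. The second is the central part of the H3K27ac interval (chr10:71094176-71094475, plus strand), which holds 1 CACGTG and 1 GGGCGG, in capitals and the latter read from the other strand.
HK1 H3K4me3: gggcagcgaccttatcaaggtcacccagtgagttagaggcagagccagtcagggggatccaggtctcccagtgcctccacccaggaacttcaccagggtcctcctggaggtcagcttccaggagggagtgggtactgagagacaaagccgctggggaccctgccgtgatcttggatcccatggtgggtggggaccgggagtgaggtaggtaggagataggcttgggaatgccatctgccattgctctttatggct
HK1 H3K27ac: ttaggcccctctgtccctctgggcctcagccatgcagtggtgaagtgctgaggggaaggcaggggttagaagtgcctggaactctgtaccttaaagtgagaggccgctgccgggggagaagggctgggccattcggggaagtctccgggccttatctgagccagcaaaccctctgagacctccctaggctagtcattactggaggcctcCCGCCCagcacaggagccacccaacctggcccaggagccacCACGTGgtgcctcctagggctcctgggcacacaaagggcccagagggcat

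HK2 encodes the hexokinase of muscle, fat and many tumours. It lies at chr2:75061254-75120486 on the plus strand, and its outer and canonical starts coincide. An H3K4me3 interval of 871 bp (−log10 q 5.60, 88.4% of the list lower) began 274 bp after the start, and it lay wholly inside an H3K27ac interval of 1102 bp with a lower −log10 q of 2.65. Both covered part of exon 1. Along the rest of the gene, 12 more H3K27ac intervals followed, from 5750 to 53789 bp past the start, and 1 more lay downstream. Their −log10 q ran from 1.57 to 5.98. The 2 strongest were an interval in an intron at 21639 bp (5.95) and one over exons 14 and 15 at 52158 bp (5.98). The intronic one shared 412 bp with an H3K4me3 interval of 710 bp (4.69), which is the only overlap of the marks in HK2 away from its start. The 6097 bp under H3K27ac at HK2 compare with 19150 bp at the 10 genes together. Words of 32 bases that occur more than once in the assembly made up 85.0% of one intronic H3K27ac interval (at 5750 bp, 3.65) and 63.3% of another (at 25297 bp, 4.14), but 0.0% of the one at 21639 bp.

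The central part of that last H3K27ac interval (chr2:75082970-75083269, plus strand) is shown as the site where the 2 marks met inside HK2. None of the 3 sets of letters occurs in it, so it is all in lower case.
HK2 intron: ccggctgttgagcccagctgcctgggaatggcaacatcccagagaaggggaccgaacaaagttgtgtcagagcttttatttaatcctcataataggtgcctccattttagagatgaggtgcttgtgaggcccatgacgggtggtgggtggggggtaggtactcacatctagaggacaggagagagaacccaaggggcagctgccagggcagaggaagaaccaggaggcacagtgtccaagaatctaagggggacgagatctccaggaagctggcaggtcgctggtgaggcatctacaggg

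**Figure D3:**
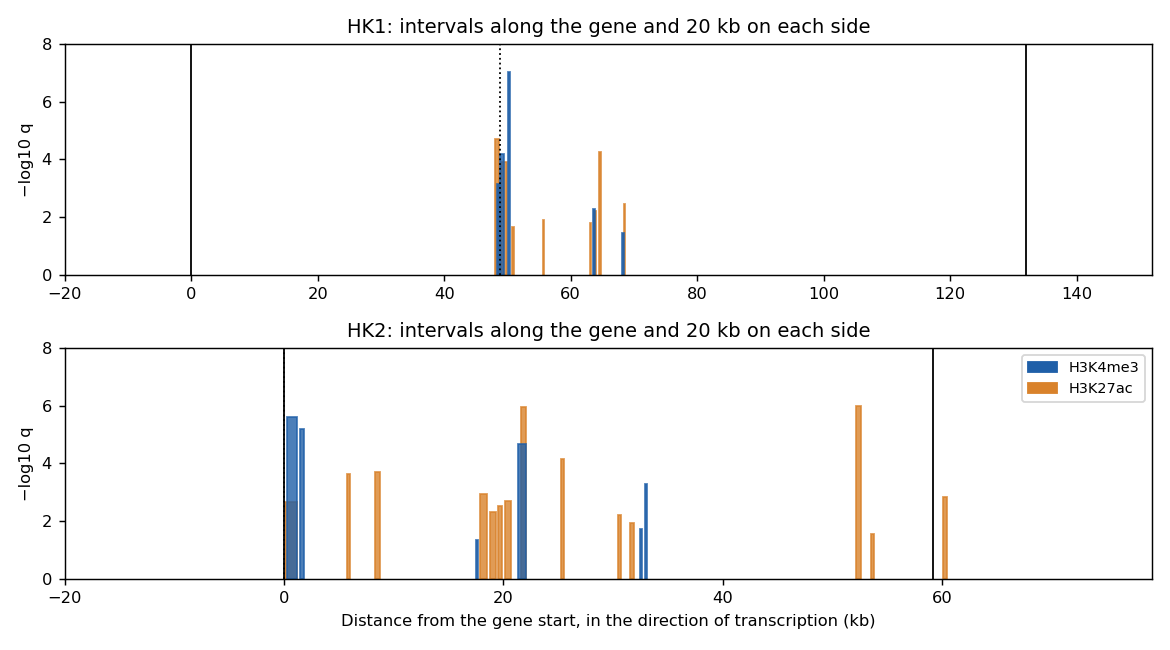
Intervals along HK1 (upper) and HK2 (lower) and 20 kb on each side. The horizontal axis is the distance from the outer gene start in kb, the vertical axis the −log10 q, and bars are H3K4me3 (blue) or H3K27ac (orange) intervals with an outline that widens the narrow ones. Solid lines mark the gene ends and the dotted line the canonical start. HK1 has no interval over its first 47 kb. HK2 has body intervals from near its start to 53789 bp past it, the strongest at −log10 q 5.98, but none between 33128 and 52158 bp.

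GPI, which converts glucose 6-phosphate to fructose 6-phosphate, was the 1 gene with neither mark within 1 kb of its outer or its canonical start. It lies at chr19:34850385-34893318 on the plus strand, with the canonical start 5716 bp inside the outer one. Its single H3K4me3 interval (299 bp, −log10 q 3.64) and an H3K27ac interval (442 bp, 1.66) overlapped by 297 bp at exon 2. They began 6908 and 6763 bp past the outer start. These lay just beyond 1 kb of the canonical start, so GPI counts as unmarked at both starts by a small distance. The start of another GPI transcript was 826 bp from the H3K4me3 and 681 bp from the H3K27ac interval, so there both marks lay within 1 kb. The second H3K27ac interval was downstream, 829 bp from the start of PDCD2L, and 89.4% of its words occur more than once.

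The phosphofructokinase genes differed in their marks. PFKL, the liver form, lies at chr21:45719934-45747259 on the plus strand. It had H3K4me3 on both sides of its start, with a 479-bp interval (−log10 q 2.54) from 656 to 178 bp before it and a 711-bp interval (3.48) from 457 to 1167 bp after it. The second shared 462 bp with an H3K27ac interval of 780 bp (3.54). The strongest H3K4me3 interval within 20 kb (6.58) lay downstream, 650 bp from the start of CFAP410. PFKP, the platelet form, lies at chr10:3108525-3179910 on the plus strand, with the canonical start 1215 bp inside. It had 1 interval of each mark and these did not overlap. The H3K4me3 interval (411 bp, 2.97) lay in an intron 1465 to 1875 bp past the outer start, and the H3K27ac interval (281 bp, 4.0) in an intron 26514 bp past it, where it exceeded 81.4% of its list.

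The H3K27ac interval of PFKP (chr10:3135039-3135319, plus strand) is shown because it is the gene's only one and its sequence is repetitive within itself. The capitals mark its most frequent 12-base word, which occurs 4 times. None of its words of 32 bases occurs elsewhere in the assembly.
PFKP H3K27ac: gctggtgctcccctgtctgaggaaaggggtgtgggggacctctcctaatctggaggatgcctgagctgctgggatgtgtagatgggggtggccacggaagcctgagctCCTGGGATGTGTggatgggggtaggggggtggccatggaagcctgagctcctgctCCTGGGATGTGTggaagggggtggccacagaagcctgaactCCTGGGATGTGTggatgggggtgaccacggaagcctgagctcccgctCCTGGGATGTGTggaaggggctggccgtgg

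ALDOA, the muscle aldolase that splits fructose 1,6-bisphosphate, lies in a crowded stretch at chr16:30075485-30081778 on the plus strand. The canonical start is 1596 bp inside the outer one. The strongest H3K27ac interval of all 54 was found here, at 356 bp and a −log10 q of 7.90 (98.9% of the list lower) and ended 78 bp before the outer start. It overlaps an exon of ENSG00000285043, a protein-coding gene without a symbol that begins upstream. That gene also has exons inside ALDOA, including under the H3K27ac interval over ALDOA exon 4, so the 2 genes cannot be cleanly parted here. No H3K4me3 overlapped it, and the H3K4me3 interval after the outer start reached only 1.93. At the canonical start, H3K4me3 of 460 bp (3.32) contained an H3K27ac interval of 230 bp (2.48) over exon 1, and H3K27ac intervals of 4.27 and 3.92 followed in an intron and over exon 4. The strongest H3K4me3 interval near any of the 10 genes (8.06) was 10477 bp upstream of ALDOA and 144 bp from the start of ENSG00000285043. Another pair of intervals, H3K4me3 with 4.85 and H3K27ac with 3.07, lay 255 and 142 bp from the start of the neighbour PPP4C.

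GAPDH makes the first NADH of the path and is widely used as a reference for expression. It spans 3.86 kb at chr12:6643678-6647540 on the plus strand. Its strongest interval was H3K4me3 of 556 bp (−log10 q 5.89) that ended 1060 bp before the start, outside the 1-kb distance. Inside the gene, H3K4me3 intervals of 241 bp (2.21) and 548 bp (2.93) and H3K27ac intervals of 471 bp (2.13) and 737 bp (3.35) alternated, and the last of each overlapped by 451 bp. GAPDH thus had 1345 bp of H3K4me3 within 2 kb of its start, the most of the 10 genes. The genome holds 65 named GAPDH pseudogenes, but at most 12.6% of the words in an interval of GAPDH occurred more than once.

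ENO1, which makes phosphoenolpyruvate, lies at chr1:8921059-8939249 on the minus strand, with the canonical start 504 bp inside. It carried the weakest set of H3K4me3 intervals, with a median −log10 q of 1.36. The 262-bp interval over exon 1 reached 2.93, and the other 2 had 1.34 and 1.36. H3K27ac flanked that exon, with 192 bp (2.82) between the outer and the canonical start and 393 bp (3.71) in an intron after it. Of the words in the first 2 kb of the ENO1 transcript, 26.0% occur more than once in the assembly, the highest share of the 10 genes, and HK2 followed with 10.0%.

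PKM, whose splice forms include the M2 pyruvate kinase of growing cells, lies at chr15:72491370-72524160 on the minus strand, with the canonical start 629 bp inside. A row of 4 H3K4me3 intervals ran from 28 bp before to 4356 bp after the outer start, with a −log10 q of 2.49, 2.20, 3.16 and 2.14 in that order. H3K27ac intervals of 4.39, 2.91 and 1.49 overlapped the last 3 of them. One more, of 4.33, stood between them without H3K4me3. In the last overlapping pair, words that occur more than once made up 53.8% of the H3K27ac interval (1.49) and 52.3% of the H3K4me3 interval (2.14). The first interval of this row is the one that covers the outer start base.

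LDHA, the lactate dehydrogenase form of muscle and many tumours, lies at chr11:18416107-18429972 on the plus strand. Its only H3K4me3 interval was wide (852 bp) and had a −log10 q of 2.26, from 405 to 1256 bp after the start. An H3K27ac interval of 376 bp (3.40) shared 375 bp with its downstream end. Another 3 H3K27ac intervals lay 12181, 9647 and 9205 bp upstream, with 3.71, 2.83 and 2.80. Repeated words made up 48.8%, 0.0% and 65.2% of these in the same order.

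At the starts, most H3K4me3 calls of the 10 genes ranked below the median of marked genes, while measures of length went in different directions. The strongest H3K4me3 interval within 1 kb of the gene start had a median −log10 q of 2.49 over the 7 marked glycolytic genes, and a median of 3.76 (interquartile range 2.78 to 5.36) over all 7705 marked genes. HK2 alone was above that median and 6 were below it. At the canonical starts the values were 3.16 for 9 genes and 3.76 for all, with 2 above and 7 below. The widest H3K4me3 interval within 1 kb of the gene start had a median of 367 bp in the 7 genes and 411 bp in all marked genes, with 3 above and 4 below. At the canonical starts it was 656 bp against 416 bp, with 6 above and 3 below. The length under H3K4me3 within 2 kb of the gene start had a median of 1190 bp in the 7 genes and 547 bp (332 to 842) in all marked genes, with 6 above and 1, ENO1, below. The H3K27ac interval at the start had a median −log10 q of 3.40 in the 7 genes and 3.05 in all 4753 marked genes, with 4 above and 3 below. The length under H3K27ac within 2 kb was 780 bp against 412 bp. Since the genes were few and each mark had 1 library, these are descriptions and not differences shown by a test.

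**Figure D4:**
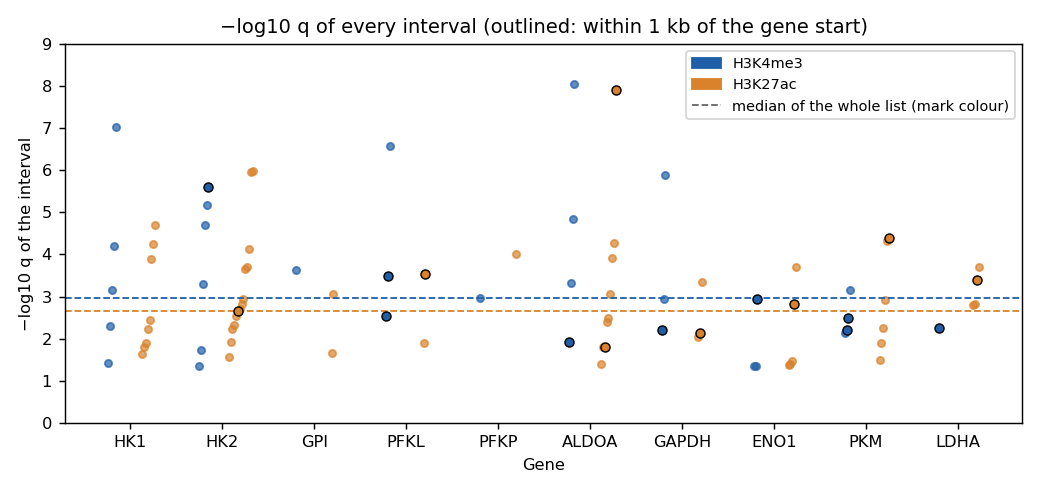
The −log10 q of all 31 H3K4me3 (blue) and 54 H3K27ac (orange) intervals by gene, with a dark outline for those within 1 kb of the outer gene start. Dashed lines are the medians of the whole lists, 2.97 for H3K4me3 and 2.65 for H3K27ac. The highest points, 8.06 and 7.90, were both counted for ALDOA, but the 8.06 interval lay nearer the start of ENSG00000285043, a gene that also has exons inside ALDOA. Most outlined H3K4me3 points lie below the blue line.

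Over all their intervals the 10 genes ranked near the middle of the lists, with a median −log10 q of 2.97 for H3K4me3 and 2.75 for H3K27ac. The list medians were 2.97 and 2.65, and 15 of 31 and 28 of 54 intervals were above them. Overlap with the other mark was found for 17 of the 31 H3K4me3 intervals (54.8%, exact Clopper-Pearson 95% interval 36.0 to 72.7), against 31.1% of the whole list. For H3K27ac it was 17 of 54 (31.5%, 19.5 to 45.6), against 24.0%. These intervals cover counting error only, and neighbouring intervals of a gene are not independent. Another protein-coding gene had the nearer start for 8 of the 85 intervals (9.41%), of which ALDOA held 5, so part of what is counted within 20 kb belongs as much to neighbours.

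The other isozymes and steps of the path were counted in the same way. Of 17 further glycolysis genes, 2 had H3K4me3 and 4 had H3K27ac within 1 kb of the gene start, beside 38.2% and 23.6% of all protein-coding starts, and 12 had neither, namely HK3, HKDC1, ADPGK, ALDOC, GAPDHS, PGK1, PGK2, PGAM2, BPGM, PKLR, LDHB and LDHC. At the canonical start 4 had H3K4me3, 4 had H3K27ac and 12 had neither, beside 41.8% and 25.5% of all with each mark. Overlapping intervals of both marks lay at 0 of the 17 gene starts (15.5% of all) and 3 of the canonical starts (17.2%). Those 3 were ADPGK, ENO2 and ENO3. ADPGK, bare at its gene start, had H3K4me3 of up to 3.16 and H3K27ac of up to 4.29 at the canonical start. HK3, PGK1, PGK2, BPGM and LDHB had no interval of either mark within 20 kb. Several of the 17 are isozymes of a single tissue, such as the testis forms PGK2, GAPDHS and LDHC, so the lists are not alike in kind.

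Set beside its isozymes, LDHA had both marks at its start, whereas LDHB, the heart form, had none within 20 kb. The 1 interval of each mark counted for LDHC was that of the LDHA start, 16502 and 16501 bp from the start of LDHC. Within 20 kb, ALDOA had 4 H3K4me3 and 9 H3K27ac intervals, against 1 of each for ALDOC, the brain form. Over the gene body the counts were 2 and 4 for ALDOA and 0 of each for ALDOC. PKLR, the pyruvate kinase of liver and red cells, had 5 H3K4me3 and 6 H3K27ac intervals within 20 kb but none over its body. Phosphoglycerate kinase was the step without any interval, since neither the general form PGK1 on chromosome X nor the testis form PGK2 had one. The triose isomerase TPI1 had H3K4me3 of 202 bp (−log10 q 3.75) at its start, the mutase PGAM1 H3K27ac of 2.82 and the enolase ENO2 H3K27ac of 1.31. The canonical start of ENO2 lies 835 bp inside. Within 1 kb of it, ENO2 also had H3K4me3 of 839 bp (3.54), which overlapped H3K27ac. The muscle phosphofructokinase PFKM had H3K27ac of 4.28 at its outer start. No interval of either mark lay within 1 kb of the PFKM canonical start, 14225 bp inside. ENO3, the muscle enolase, had the highest counts of the 17, with 9 intervals of each mark within 20 kb and H3K4me3 of 672 bp (3.34) at its gene start. Only 2 of its H3K4me3 and 3 of its H3K27ac intervals lay over its body.

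**Figure D5:**
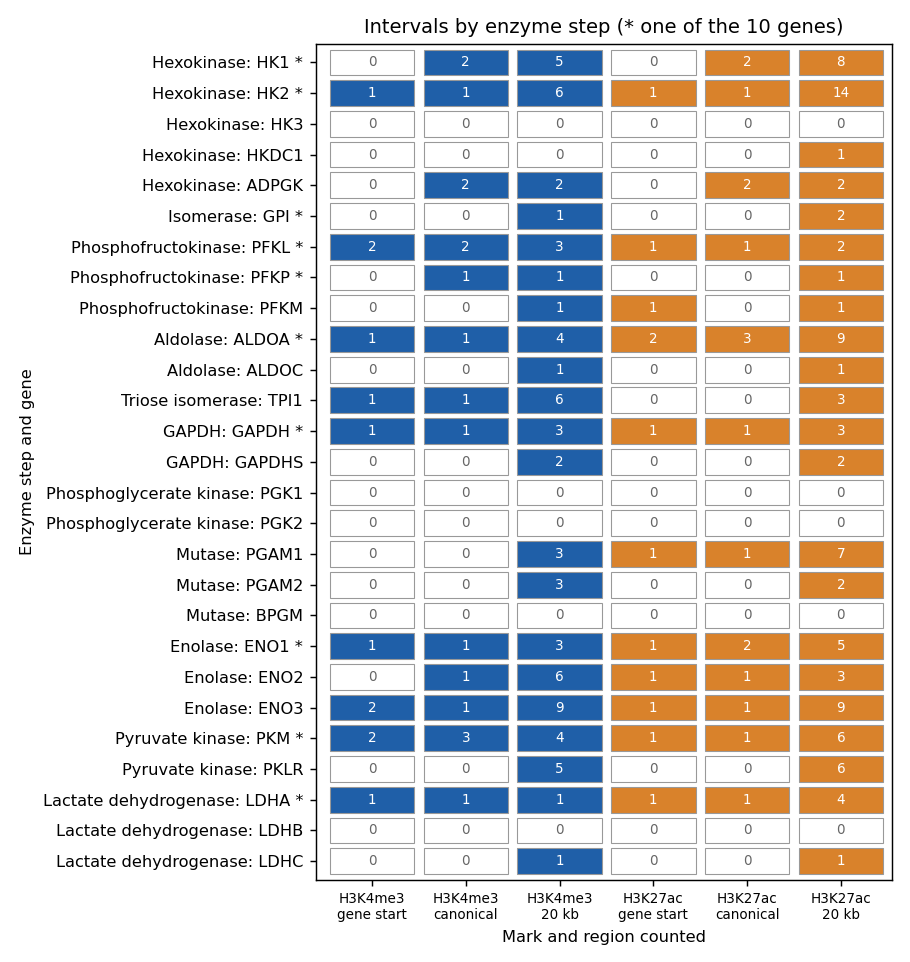
Number of H3K4me3 (blue columns) and H3K27ac (orange columns) intervals for the 10 and 17 glycolysis genes by enzyme step, within 1 kb of the gene start, within 1 kb of the canonical start, and over or within 20 kb of the gene. Filled cells hold at least 1 interval, and an asterisk marks the 10 genes described. Both phosphoglycerate kinase genes are empty throughout, and LDHA is filled where LDHB is empty.

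Among 16 genes of glucose supply and control, 10 had H3K4me3 and 3 had H3K27ac within 1 kb of the gene start, beside 38.2% and 23.6% of all. SLC2A3, PFKFB1, PFKFB2, TIGAR, PDK2 and PDK3 had neither. At the canonical start 12 had H3K4me3, 6 had H3K27ac and 3 had neither. There PFKFB2 had both marks and SLC2A3 and PDK2 had H3K4me3. The 3 with the widest H3K4me3 interval at the gene start were also the 3 with overlapping marks. They were the lactate carriers SLC16A1 (1006 bp, −log10 q 6.94) and SLC16A3 (479 bp, 2.93) and the glucose carrier SLC2A1 (416 bp, 1.55). SLC2A1 had 16 H3K27ac intervals within 20 kb, against 14 for HK2, the highest count among the 10 enzymes.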

How the data were processed

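H2087 cells were analysed by ChIP-seq with 1 library per histone mark. Per the submitters' processing notes and the study's methods, the authors used bcl2fastq 1.8.4, Bowtie 1.1.1 (hg19), SAMtools 1.2, Picard 1.118, MACS2 2.1.0 for peaks and ChIPseeker 1.6.6 for annotation. The threshold and the handling of duplicates are not stated. The input was kept for normalization, but its role in the calling of peaks is not described. The last column of the deposited lists has no header and was read as −log10 q from its values, whose smallest were 1.306 (H3K4me3) and 1.303 (H3K27ac) against 1.301 for a q of 0.05. Entries of one interval, one per summit (20282 and 25275 entries), were reduced to the interval with its highest value. No interval passed a chromosome end of GRCh37.

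Genes came from GENCODE 44 on that build. A start was marked when an interval lay within 1 kb. Python 3.11.15, pandas 2.3.3, numpy 2.4.6 and scipy 1.17.1 were used, and the counting was tested on simulated data. Depth is unknown, and intervals of shares cover counting error only. The 10 genes, the lists and the rule for named genes (all 10, every listed gene with a bare start and the 3 with the widest H3K4me3 start interval) were chosen with earlier results of these data known. TPI1, PFKM, PGAM1, ENO2 and ENO3 were named after their values were seen. The length within 2 kb, the covered start base and the canonical start were likewise added then. So were GC content, the placement over all genes, repeated words and pseudogenes. PECAM1, 1 of the listed markers, had no protein-coding entry and was left out. Some items of the lists are not reported here. Alternatives are given in the closing section.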

Additional observations from a re-analysis of the deposited data

How the results depend on the processing

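No paired analysis was possible because the marks were measured in single libraries, which also leaves no replicate to omit. Of 39 alternative values, 26 stayed within the spread allowed for them and 13 moved. Keeping only intervals at or above their list's median −log10 q gave 29 H3K27ac and 16 H3K4me3 intervals, 2 starts with H3K4me3 and 2 with both marks. Merging within 1 kb gave 34 H3K27ac intervals. A distance of 500 bp gave 3 starts with H3K27ac and 1 with both marks, any transcript start gave 8 with both, and an overlap of 50% of each interval gave 3. Counting the other mark within 1 kb as overlap gave 53.7% of the H3K27ac and 87.1% of the H3K4me3 intervals. Intervals nearer another start made up 50.6% when all annotated genes were used and 0% over gene bodies alone. The canonical start, chosen after seeing the data, gave 9 starts with H3K4me3, 8 with H3K27ac and 6 with both. Sequencing depth, unknown here, limits every count, since a weak region may fall below the calling threshold. The cause of the changes was not tested.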

Other observations

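Of 83 pseudogenes named after the 10 genes (65 of GAPDH, 6 of LDHA, 5 of PKM, 4 of ENO1, 2 of ALDOA and 1 of HK2), none was overlapped by H3K4me3 and 2, GAPDHP29 and ENO1P3, by H3K27ac.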
